A study of Mus musculus with 4 samples.

Results

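The genes described here are 10 markers of natural killer (NK) cells, group 1 innate lymphoid cells (ILC1s) and cytotoxic lymphocytes, namely *Tbx21*, *Eomes*, *Ncr1*, *Klrb1c*, *Klrd1*, *Gzma*, *Gzmb*, *Prf1*, *Nkg7* and *Ifng*. They were taken by name, all 10 of them, from the 49315 genes of a table of RNA-Seq read counts. The RNA came from ILC2s sorted from mouse lungs by the phenotype Lineage–Thy1.2+ICOS+T1/ST2+, which were then cultured with IL-2. C57BL/6 WT mice or *Hps1*-/- mice on the same background, a model of Hermansky-Pudlak syndrome in which the mutation is carried by every cell, had received PBS or bleomycin, a drug that injures the lung. The PBS groups are PBS-WT (22405 cells) and PBS-HPS1 (38873 cells), the bleomycin groups BLEO-WT (84166 cells) and BLEO-HPS1 (128647 cells), each with 1 library, so no value has a replicate and the variation from mouse to mouse was not measured. The study's intraperitoneal protocol used mice 10 weeks old, 6 daily injections of 25 U/kg and sacrifice on day 12, and its intratracheal protocol ended on day 14. Which of these gave the sequenced cells, and how many mice were pooled, is not given in the sources used here.

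NK cells and ILC1s are the innate lymphocytes of type 1 immunity. The T-box factors T-bet, encoded by *Tbx21*, and *Eomes* set up their programs, with *Eomes* marking NK cells more than ILC1s. Activating and inhibitory receptors of the cell surface decide whether a target cell is attacked, which then happens through granules that hold perforin and granzymes, and the cells secrete IFN-γ, encoded by *Ifng*. Cytotoxic T cells share most of the granule genes, *Tbx21* and *Ifng*. ILC2s depend on GATA3 instead and make IL-5 and IL-13. The antibodies of the lineage panel named in the study's methods were against CD3, CD11b, CD45R/B220, Ly76, Ly6G and Ly6C, and none of these is an NK receptor, although mature NK cells carry CD11b. An enrichment kit for all ILCs was used before the sort, and its antibodies are not given in the sources used here.

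To show where these genes start, the 250 bases before the RefSeq transcription start of 3 of them are given, since *Ncr1* and *Gzmb* each held 2 copies of a Runx motif and *Nkg7* held both motifs that were searched. The searches were for the Runx motif TGTGGT or its reverse complement ACCACA, and for the T-box core TCACACC or its reverse complement GGTGTGA. They covered the RefSeq promoters of GRCm38.p6, which run 250 bases before to 50 bases after the start. Capitals mark these matches, the strand shown is that of the gene, and the positions are chr7:4337465-4337714 on the plus strand for *Ncr1*, chr14:56262335-56262584 on the minus strand for *Gzmb* and chr7:43436888-43437137 on the plus strand for *Nkg7*. The RefSeq start used for these windows is not the start of the gene in GENCODE M21, and lies 9 bases before it for *Ncr1*, 74 before it for *Gzmb* and 65 after it for *Nkg7*, so the last 65 bases shown for *Nkg7*, which hold the T-box core, are inside the gene as placed below.
Ncr1: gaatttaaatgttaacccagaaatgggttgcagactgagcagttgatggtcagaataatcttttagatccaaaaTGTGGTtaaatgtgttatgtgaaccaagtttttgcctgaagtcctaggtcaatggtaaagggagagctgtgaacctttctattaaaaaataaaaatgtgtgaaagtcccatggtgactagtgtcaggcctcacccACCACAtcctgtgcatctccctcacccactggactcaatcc
Gzmb: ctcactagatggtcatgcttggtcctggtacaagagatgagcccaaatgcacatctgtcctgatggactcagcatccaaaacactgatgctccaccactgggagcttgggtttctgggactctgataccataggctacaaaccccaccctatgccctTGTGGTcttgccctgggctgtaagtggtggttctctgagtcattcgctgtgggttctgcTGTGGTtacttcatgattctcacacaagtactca
Nkg7: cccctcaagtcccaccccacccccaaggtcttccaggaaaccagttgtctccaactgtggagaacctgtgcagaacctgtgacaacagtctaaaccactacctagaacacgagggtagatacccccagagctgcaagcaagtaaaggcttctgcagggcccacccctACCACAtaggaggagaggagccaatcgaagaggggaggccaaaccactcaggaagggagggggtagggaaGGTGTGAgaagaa

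Counted back from the start, the Runx motif began at base -176 and base -41 in *Ncr1*, at -93 and -34 in *Gzmb* and at -83 in *Nkg7*, where the T-box core began at -13. Of the 10 genes, 9 had a promoter in the RefSeq table, all except *Klrd1*. The Runx motif was found in 6 of these 9 windows, once each in *Klrb1c*, *Gzma* and *Prf1* besides the 3 shown. The RefSeq start of *Klrb1c* lies 574 bases after its GENCODE M21 start, so its whole window is inside the gene as placed below. It was found in 16.9% of 27025 promoters. The T-box core was found in 1 of the 9 windows, that of *Nkg7*, and in 3.96% of all promoters. A match is a run of letters, and binding of a factor was not measured.

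Between 72513619 and 87638154 reads were counted per library, and 3 reads, the smallest count treated as a level, equal 0.0336 to 0.0456 CPM, reads brought to a common library total by edgeR's trimmed mean of M-values (TMM) factors of 0.849 to 1.15. *Hps1* itself was at 2989 reads in PBS-WT and 1647 in PBS-HPS1, and 3795 in BLEO-WT and 1347 in BLEO-HPS1, so reads were lower but present in the *Hps1*-/- libraries. Markers of ILC2s were counted in every library, with *Gata3* at 38.3, 43.3, 23.6 and 25.9 CPM in the order WT and *Hps1*-/- with PBS, then WT and *Hps1*-/- with bleomycin. Markers of T cells, against which the CD3 antibody of the lineage panel is directed, and of macrophages were present too. *Cd3e*, a chain of the T cell receptor complex, was at 83.3, 74.9, 65.7 and 129 CPM, and the macrophage gene *Lyz2* at 9404, 6748, 12360 and 11860 CPM. A loess correction for the GC content and length of transcripts moved many ratios, and its value stands beside those of the 10 genes where it changes a call or a direction, and beside counts and medians of gene lists where it moves them most. A ratio is called here when it is at least 2-fold, a log2 ratio of 1 in size, among the 15006 genes with at least 1 CPM in some library. The shares of tested genes given below were computed without the loess correction, so counts after it have no matching share. All 10 genes passed this filter.

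The 10 genes together held 21988 reads in PBS-WT and 35586 in PBS-HPS1, and 11286 in BLEO-WT and 29104 in BLEO-HPS1. These were 0.0303% of the reads in PBS-WT (95% exact interval 0.0299 to 0.0307) and 0.0458% in PBS-HPS1 (0.0453 to 0.0463), and 0.0129% in BLEO-WT (0.0126 to 0.0131) and 0.0376% in BLEO-HPS1 (0.0372 to 0.0380). The share was thus lowest in BLEO-WT and highest in PBS-HPS1. On the scaled levels, the summed CPM was 281, 399, 135 and 443 in the same order, so BLEO-HPS1 came above PBS-HPS1 on this scale. In bulk RNA, fewer cells of a type and less RNA per cell cannot be told apart. The intervals cover the counting error of reads only. PCR copies of a molecule are counted as separate reads, so the intervals can be too narrow even for the sampling of molecules.

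**Figure D1:**
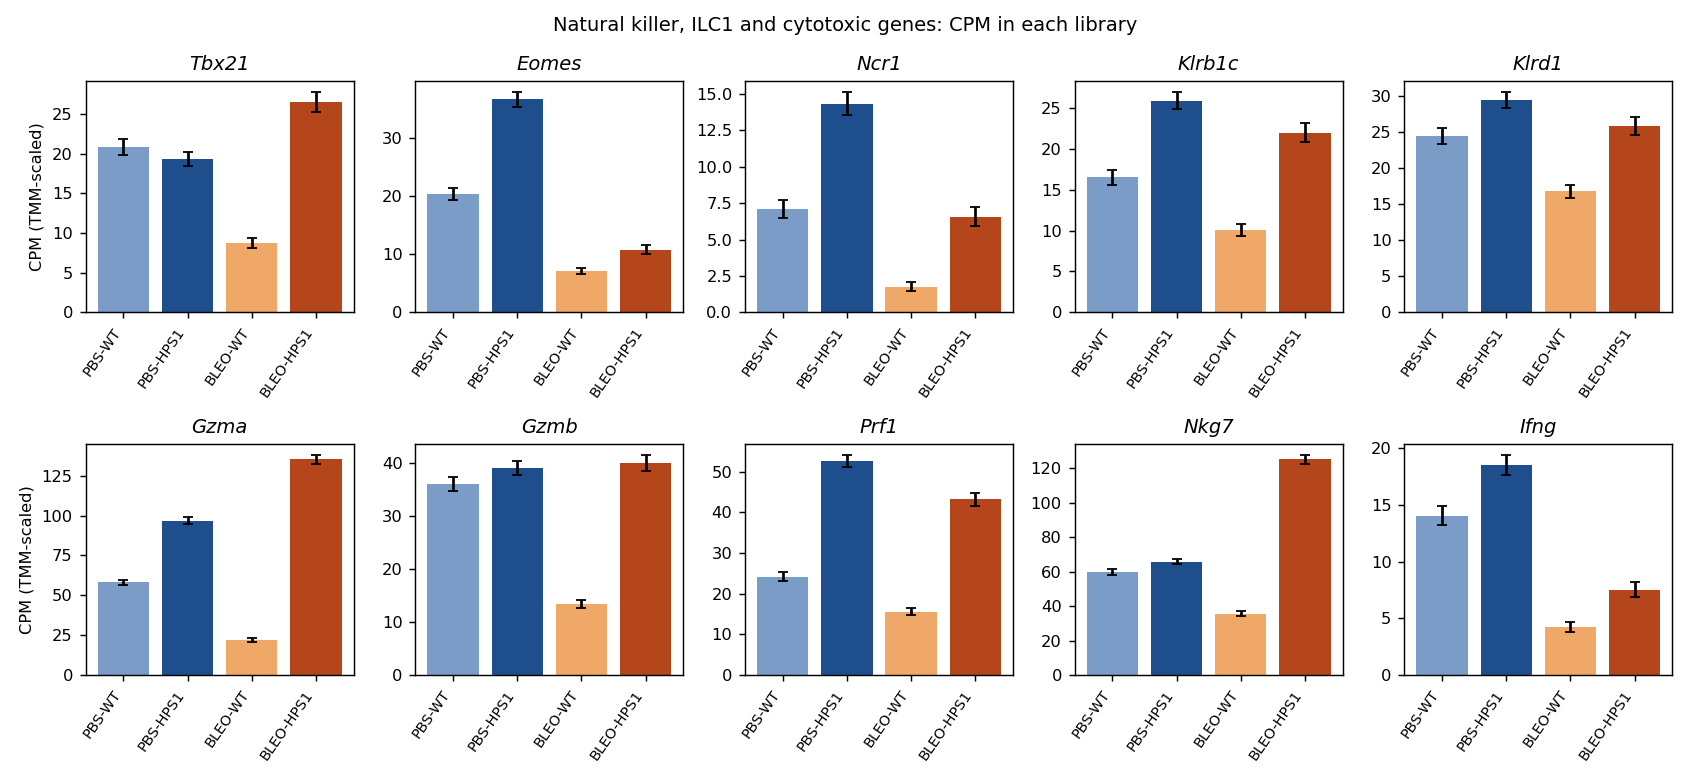
TMM-scaled CPM of each of the 10 genes in the 4 libraries, 1 bar per library, with 95% exact Poisson intervals that cover counting error only. Each gene has its lowest bar in BLEO-WT, although for Klrd1 the ratio of BLEO-WT to PBS-WT is above 0 after the loess correction. The highest bar is BLEO-HPS1 for Tbx21, Gzma, Gzmb and Nkg7 and PBS-HPS1 for the other 6. After the loess correction, the log2 ratio of BLEO-HPS1 to PBS-HPS1 is below 0 for Tbx21, Gzmb and Nkg7. It is then above 0 for Klrb1c and Klrd1.

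All 10 genes had their lowest CPM in BLEO-WT, the lowest library for 11.8% of tested genes, although *Klrd1* was higher there than in PBS-WT after the loess correction. Their highest CPM was in PBS-HPS1 for 6 genes (28.2% of tested genes) and in BLEO-HPS1 for 4 genes (39.7%). The loess correction changed which of these 2 libraries was higher for several genes. The log2 ratio of BLEO-HPS1 to PBS-HPS1 was then -0.34 for *Tbx21*, -0.002 for *Gzmb* and -0.08 for *Nkg7*. It was 0.16 for *Klrb1c* and 0.99 for *Klrd1*. Among the 30 pairs of neighbouring libraries in the orders of CPM, the intervals overlapped in 4. These were PBS-HPS1 and PBS-WT for *Tbx21*, BLEO-HPS1 and PBS-WT for *Ncr1*, PBS-WT and BLEO-HPS1 for *Klrd1*, and PBS-HPS1 and BLEO-HPS1 for *Gzmb*. The share of such overlaps over all tested genes was not computed, so the count is not a trait of these 10 genes. Positions below are those of GRCm38 in the GENCODE M21 annotation.

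*Tbx21* (ENSMUSG00000001444 on chromosome 11 from 97098071 to 97115331, minus strand) had 1628 reads in PBS-WT and 1725 in PBS-HPS1, and 732 in BLEO-WT and 1741 in BLEO-HPS1. In CPM these were 20.8, 19.3, 8.78 and 26.5. The PBS libraries of the 2 genotypes were nearly level, with a log2 ratio of PBS-HPS1 to PBS-WT of -0.11 (95% exact interval -0.21 to -0.01), while the bleomycin libraries lay on either side of them. *Eomes* (ENSMUSG00000032446 on chromosome 9 from 118478212 to 118486132, plus strand) had 1598, 3279, 596 and 709 reads in the same order, or 20.4, 36.7, 7.15 and 10.8 CPM. Both bleomycin libraries lay below both PBS libraries for *Eomes*, unlike for *Tbx21* in CPM. After the loess correction, the log2 ratio of BLEO-HPS1 to PBS-HPS1 was -0.34 for *Tbx21*. The 2 lineage factors therefore kept no fixed ratio. There were 0.982 *Eomes* reads per *Tbx21* read in PBS-WT (0.916 to 1.05) and 1.90 in PBS-HPS1 (1.79 to 2.02), and 0.814 in BLEO-WT (0.730 to 0.908) and 0.407 in BLEO-HPS1 (0.373 to 0.445). Of the 50-base windows of the *Eomes* transcript, 2.28% also occur in other genes, chiefly an antisense gene, *Gm33460*, which had 15 to 49 reads per library.

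*Ncr1* encodes NKp46, an activating receptor of NK cells, ILC1s and some ILC3s (ENSMUSG00000062524 on chromosome 7 from 4337724 to 4345164, plus strand). It had 553 reads in PBS-WT and 1279 in PBS-HPS1, and 148 in BLEO-WT and 431 in BLEO-HPS1, or 7.08, 14.3, 1.78 and 6.56 CPM. With an 8.07-fold span between the highest and the lowest library, it varied most of the 10 genes. *Klrb1c* encodes NK1.1, the receptor by which NK cells of C57BL/6 mice are stained (ENSMUSG00000030325 on chromosome 6 from 128778485 to 128789215, minus strand). Its reads were 1290, 2306, 839 and 1444 and its CPM 16.5, 25.8, 10.1 and 22.0 in the same order, a 2.57-fold span. Of its 50-base windows, 18.1% are shared with the related genes *Klrb1a* and *Klrb1b*, a pseudogene and the overlapping *Gm44511*, which had 0 reads, so its count is less certain. *Klrd1* encodes CD94, the partner chain of the NKG2 receptors (ENSMUSG00000030165 on chromosome 6 from 129591782 to 129598775, plus strand). It had 1913, 2625, 1398 and 1699 reads, or 24.5, 29.4, 16.8 and 25.9 CPM, and its 1.75-fold span was the narrowest of the 10. *Klrd1* also had the lowest GC content of the 10 transcripts, 35.8%, and was the gene that the loess correction moved most in the comparisons of bleomycin with PBS. *Ncr1* reads per *Klrb1c* read were 0.429 in PBS-WT (0.387 to 0.474) and 0.555 in PBS-HPS1 (0.518 to 0.594), and 0.176 in BLEO-WT (0.147 to 0.210) and 0.299 in BLEO-HPS1 (0.267 to 0.333), so *Ncr1* was lower against *Klrb1c* in both bleomycin libraries.

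*Gzma* encodes granzyme A, a tryptase of the granules (ENSMUSG00000023132 on chromosome 13 from 113093825 to 113100981, minus strand). It had 4537 reads in PBS-WT and 8649 in PBS-HPS1, and 1840 in BLEO-WT and 8889 in BLEO-HPS1, which were 58.1, 96.9, 22.1 and 135 CPM. The 2 *Hps1*-/- libraries lay above both WT libraries. *Gzmb* encodes granzyme B, which cleaves caspases in the target cell (ENSMUSG00000015437 on chromosome 14 from 56258838 to 56262260, minus strand). Its reads were 2813, 3485, 1114 and 2628 and its CPM 36.0, 39.0, 13.4 and 40.0, so only BLEO-WT stood apart. *Prf1* encodes perforin, which opens the target membrane (ENSMUSG00000037202 on chromosome 10 from 61297833 to 61304680, plus strand). It had 1891, 4702, 1295 and 2840 reads, or 24.2, 52.7, 15.5 and 43.2 CPM, with both *Hps1*-/- libraries above both WT libraries as for *Gzma*. *Nkg7* encodes a membrane protein of cytotoxic granules (ENSMUSG00000004612 on chromosome 7 from 43437073 to 43438249, plus strand). It had 4665, 5882, 2972 and 8230 reads, or 59.7, 65.9, 35.6 and 125 CPM, with BLEO-HPS1 well above the other 3 libraries. After the loess correction, the log2 ratio of BLEO-HPS1 to PBS-HPS1 was -0.08 for *Nkg7*. *Ifng* (ENSMUSG00000055170 on chromosome 10 from 118441046 to 118445892, plus strand) had 1100, 1654, 352 and 493 reads, or 14.1, 18.5, 4.22 and 7.50 CPM, and like *Eomes* it was lower in both bleomycin libraries than in either PBS library. A gene overlapping *Ifng* on the same strand, *Gm49751*, shares 13.5% of its 50-base windows and is not in the count table.

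Compared per kilobase of transcript, *Nkg7* and *Gzma* were the 2 highest of the 10 in every library. Their levels were 67.8 and 58.3 CPM per kb in PBS-WT, 74.8 and 97.3 in PBS-HPS1, 40.5 and 22.1 in BLEO-WT and 142 and 136 in BLEO-HPS1. *Klrd1* followed at 18.2 to 32.0 CPM per kb. The lineage factors and the 2 other receptors were low, with *Eomes* at 2.01 to 10.3, *Tbx21* at 3.53 to 10.6, *Klrb1c* at 3.84 to 9.85 and *Ncr1* at 1.19 to 9.58 CPM per kb. Among the tested genes, *Gzma* was at percentile 53.4 in BLEO-WT and percentile 89.1 in BLEO-HPS1, whereas *Ncr1* was at percentile 17.4 and percentile 33.0.

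The ratio of reads of genes within 1 library does not depend on the scaling of that library, and some of these ratios moved between libraries by more than their counting error. The pairs were chosen after the values were seen. *Gzma* to *Gzmb* was 1.61 in PBS-WT (1.54 to 1.69) and 2.48 in PBS-HPS1 (2.39 to 2.58), and 1.65 in BLEO-WT (1.53 to 1.78) and 3.38 in BLEO-HPS1 (3.24 to 3.53), higher in both *Hps1*-/- libraries. *Gzma* to *Eomes* was 2.84, 2.64 and 3.09 in the first 3 libraries and 12.5 in BLEO-HPS1 (11.6 to 13.6). *Nkg7* to *Klrd1* was 2.44, 2.24 and 2.13 in the first 3 libraries and 4.84 in BLEO-HPS1 (4.60 to 5.11). Both ratios were thus highest in BLEO-HPS1 in the reads. The GC content of the transcripts differs within a pair, and the loess correction bears on these ratios. The log2 change of *Gzma* to *Eomes* between PBS-HPS1 and BLEO-HPS1 was 2.25, and 2.64 after the correction. That of *Nkg7* to *Klrd1* was 1.11, and -1.06 after the correction, so its direction turned, and between BLEO-WT and BLEO-HPS1 it was 1.19, and 0.30 after the correction. *Ifng* reads per *Tbx21* read were 0.676 in PBS-WT and 0.959 in PBS-HPS1, and 0.481 in BLEO-WT and 0.283 in BLEO-HPS1 (0.256 to 0.313). In the reads, *Ifng* thus stood lowest against *Tbx21* in BLEO-HPS1. The log2 change of this ratio between BLEO-WT and BLEO-HPS1 was -0.765, and -0.12 after the loess correction. Between PBS-HPS1 and BLEO-HPS1 it was -1.76, and -0.74 after the correction. *Gzmb* to *Prf1* was 1.49 in PBS-WT and 0.741 to 0.925 in the other 3 libraries.

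**Figure D2:**
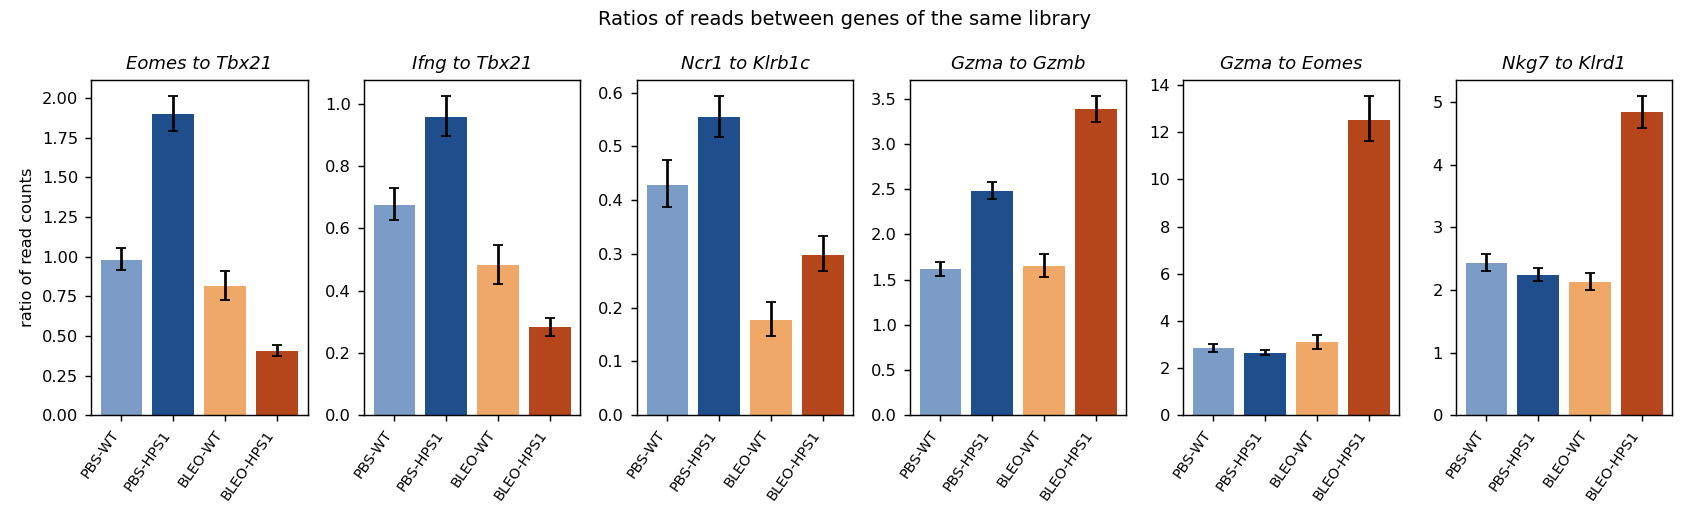
Ratio of read counts of 6 pairs of genes within each library, with 95% exact intervals that cover counting error only. The ratio of Eomes to Tbx21 is highest in PBS-HPS1, at 1.90, and lowest in BLEO-HPS1, at 0.407, while Gzma to Eomes and Nkg7 to Klrd1 reach their highest values, 12.5 and 4.84, in BLEO-HPS1. After the loess correction, the log2 change of Nkg7 to Klrd1 from PBS-HPS1 to BLEO-HPS1 is -1.06 instead of 1.11.

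To ask whether the genes differed between genotypes without injury, PBS-HPS1 was compared with PBS-WT. *Prf1* was 2.18-fold and *Ncr1* 2.02-fold higher in PBS-HPS1, and *Eomes* 1.80-fold, *Gzma* 1.67-fold and *Klrb1c* 1.56-fold. The log2 ratio was 1.12 for *Prf1* (1.04 to 1.20), 1.02 for *Ncr1* (0.87 to 1.16), 0.84 for *Eomes* (0.76 to 0.93), 0.74 for *Gzma* (0.69 to 0.79) and 0.65 for *Klrb1c* (0.55 to 0.75). Smaller log2 ratios were found for *Ifng*, 0.40, *Klrd1*, 0.26, *Nkg7*, 0.14, and *Gzmb*, 0.12, and those of *Nkg7* and *Gzmb* were -0.01 and -0.04 when TMM factors were taken from all genes without a filter. In all, 2 of the 10 genes were at least 2-fold higher, against 3.58% of tested genes, and 0 were at least 2-fold lower, against 2.38%. By any amount, 9 were higher, against 45.8%. The median log2 ratio of the 10 was 0.52, and that of all tested genes was -0.04. Without the filter, no gene reached 2-fold, with *Prf1* at 0.97 and *Ncr1* at 0.86.

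The effect of bleomycin in WT mice was read from BLEO-WT and PBS-WT. Every one of the 10 genes was lower in BLEO-WT, by between 1.46-fold for *Klrd1* and 3.94-fold for *Ncr1*, although *Klrd1* was above PBS-WT by 0.32 on the log2 scale after the loess correction. *Ifng* was 3.32-fold, *Eomes* 2.85-fold, *Gzmb* 2.69-fold, *Gzma* 2.63-fold and *Tbx21* 2.37-fold lower. The log2 ratio was -1.98 for *Ncr1* (-2.27 to -1.73), -1.73 for *Ifng* (-1.92 to -1.56) and -1.51 for *Eomes* (-1.66 to -1.38). For *Nkg7*, *Klrb1c*, *Prf1* and *Klrd1* it was -0.74, -0.71, -0.64 and -0.55. At least 2-fold lower were 6 of the 10 genes, against 9.84% of tested genes, and lower by any amount were 10, against 50.1%. The median log2 ratio was -1.32, with all tested genes at -0.001.

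The same comparison in *Hps1*-/- mice, BLEO-HPS1 against PBS-HPS1, divided the 10 genes. *Eomes* was 3.40-fold, *Ifng* 2.46-fold and *Ncr1* 2.18-fold lower with bleomycin. Their log2 ratios were -1.77 (-1.89 to -1.65), -1.30 (-1.45 to -1.16) and -1.12 (-1.29 to -0.97), and that of *Ncr1* was -0.86 after the loess correction and so under 2-fold. *Nkg7* was 1.90-fold, *Gzma* 1.40-fold and *Tbx21* 1.37-fold higher, with log2 ratios of 0.93, 0.48 and 0.45. After the loess correction these 3 ratios were -0.08 for *Nkg7*, 0.50 for *Gzma* and -0.34 for *Tbx21*, so that of *Gzma* alone stayed above 0. *Gzmb*, at 0.03 (-0.04 to 0.11), was level within counting error, and was at -0.002 after the loess correction and at -0.40 with total counts alone. The log2 ratios of *Prf1*, *Klrb1c* and *Klrd1* were -0.29, -0.23 and -0.19, and after the loess correction -0.82, 0.16 and 0.99. Of the 10 genes, 3 were at least 2-fold lower, against 24.6% of tested genes, and 0 at least 2-fold higher, against 19.3%, and the lower count was 2 after the loess correction. Without the correction, the count of lower genes is near the share of tested genes, and no share was computed after it. The median log2 ratio was -0.21, and that of all tested genes was 0 to 2 decimals.

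**Figure D3:**
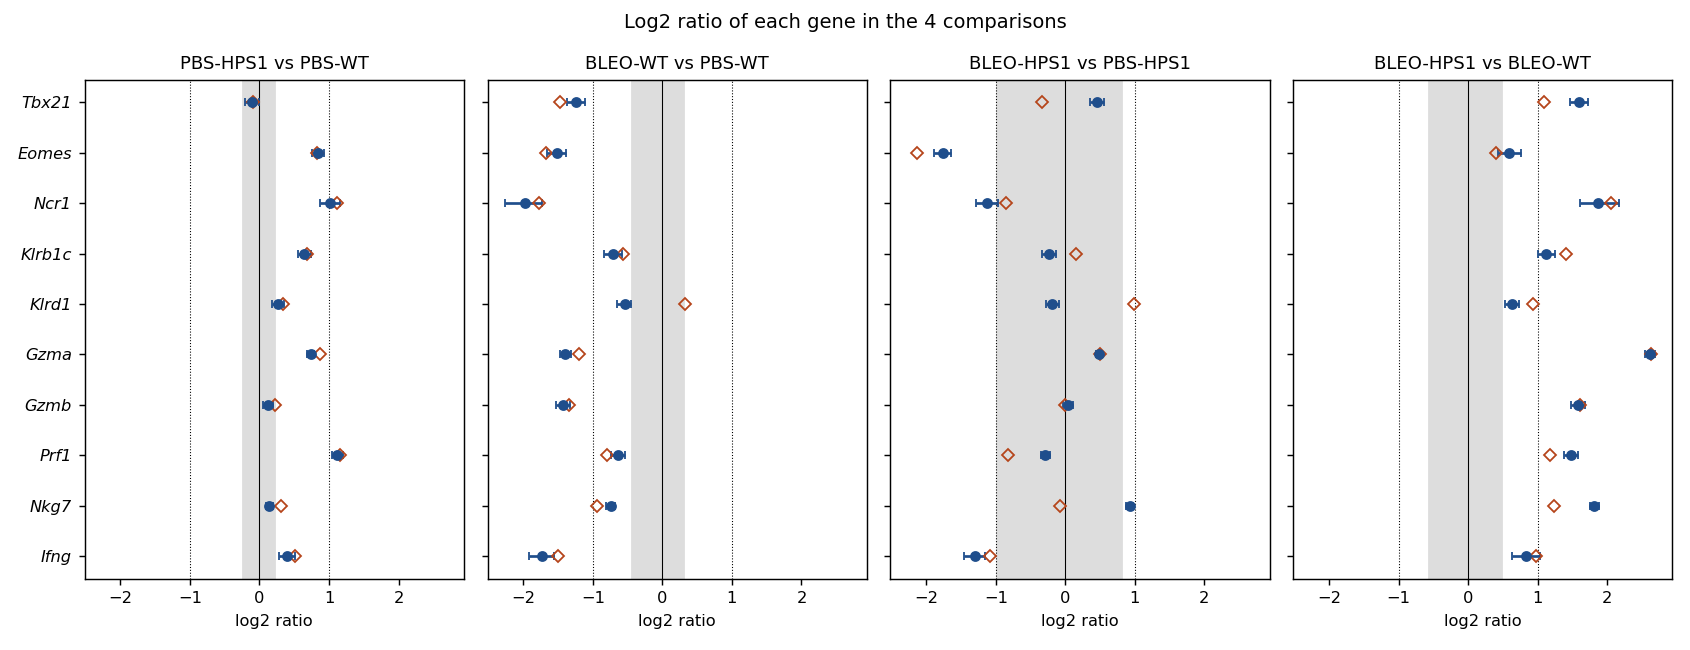
Log2 ratio of each gene in the 4 comparisons (filled circles with 95% exact intervals for counting error) and after the loess correction for GC content and length (open diamonds). The grey band is the range between the quartiles of all tested genes and the dotted lines mark 2-fold. In BLEO-WT against PBS-WT all 10 circles lie below 0 and in BLEO-HPS1 against BLEO-WT all 10 lie above it, while the diamond of Klrd1 lies at 0.32 in the former.

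Between the bleomycin libraries of the 2 genotypes, BLEO-HPS1 had the higher level of all 10 genes, under every alternative scaling, prior count, filter and correction that was run. *Gzma* differed most, 6.12-fold, with a log2 ratio of 2.61 (2.54 to 2.69) that was 2.63 after the loess correction. *Ncr1* was 3.66-fold, *Nkg7* 3.51-fold, *Tbx21* 3.01-fold, *Gzmb* 2.99-fold, *Prf1* 2.78-fold and *Klrb1c* 2.18-fold higher. The log2 ratios were 1.87 for *Ncr1* (1.61 to 2.17), 1.81 for *Nkg7* (1.75 to 1.87), 1.59 for *Tbx21* (1.47 to 1.72), 1.58 for *Gzmb* (1.48 to 1.68), 1.47 for *Prf1* (1.38 to 1.57) and 1.12 for *Klrb1c* (1.0 to 1.25), the last of which was 0.96 with total counts alone. Under 2-fold were *Ifng* at 0.83, *Klrd1* at 0.62 and *Eomes* at 0.59. Of the 10 genes, 7 were at least 2-fold higher, against 7.08% of tested genes, and 10 were higher by any amount, against 48.9%. The median log2 ratio was 1.53, with all tested genes at -0.02, and the loess correction brought it to 1.20. This comparison shares BLEO-WT with the comparison of WT libraries, in which the same genes were lower.

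Put as a difference between genotypes, 9 of the 10 genes had a larger bleomycin to PBS log2 ratio in *Hps1*-/- mice than in WT mice, against 50.2% of tested genes. The difference was 1.88 for *Gzma*, 1.70 for *Tbx21*, 1.67 for *Nkg7* and 1.46 for *Gzmb*, and 0.35 to 0.86 for *Ncr1*, *Klrb1c*, *Ifng*, *Klrd1* and *Prf1*. For *Eomes* it was -0.25. After the loess correction, the difference was 1.70 for *Gzma*, 1.35 for *Gzmb*, 1.14 for *Tbx21*, 0.86 for *Nkg7* and -0.03 for *Prf1*. By the sign of the ratio alone, 4 of the 10 genes were lower with bleomycin in WT and higher in *Hps1*-/- mice, against 11.1% of tested genes. These were *Tbx21*, *Gzma*, *Nkg7* and *Gzmb*, the last of which was level within counting error in *Hps1*-/- mice. With the loess correction, *Gzma* and *Klrb1c*, at -0.57 in WT and 0.16 in *Hps1*-/- mice, had these signs.

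**Figure D4:**
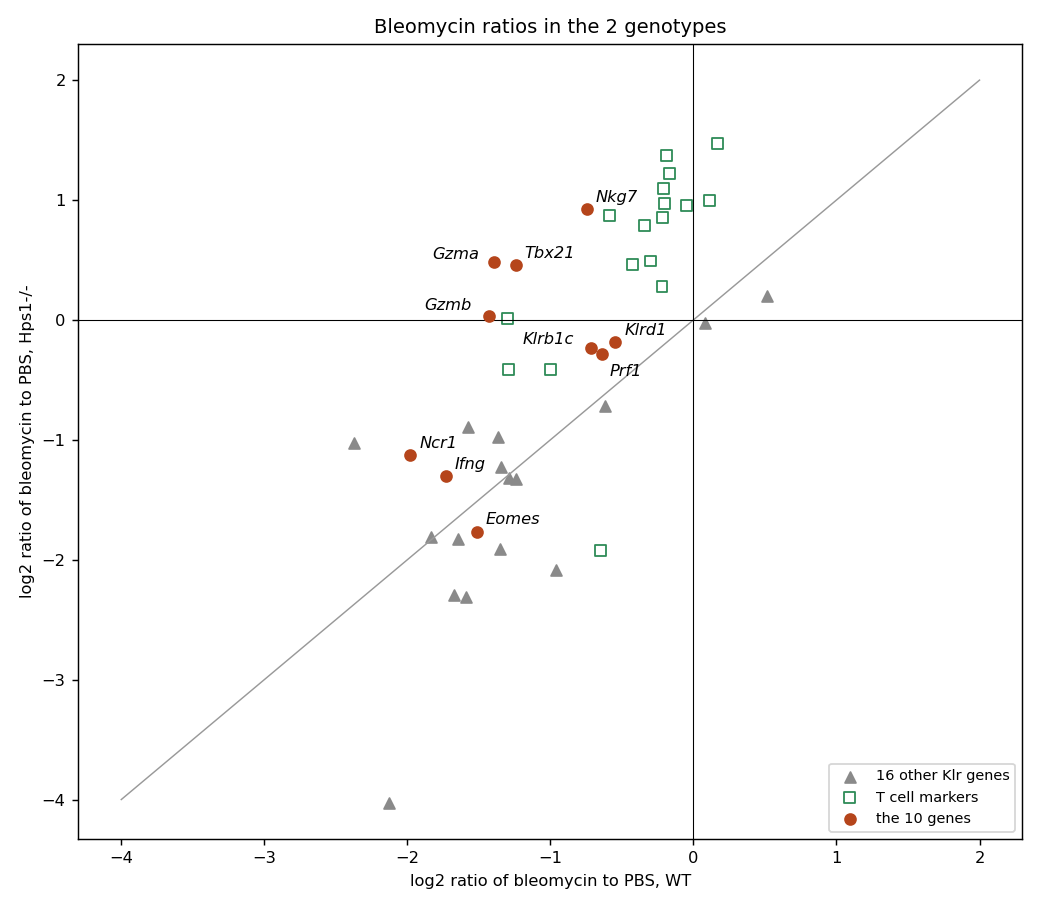
Log2 ratio of bleomycin to PBS in WT mice (horizontal axis) and in Hps1-/- mice (vertical axis) for the 10 genes, the 16 other Klr genes and the 17 T cell markers, without the loess correction. The diagonal line marks equal ratios. Nkg7, Gzma, Tbx21 and Gzmb lie left of 0 and above 0, where most T cell markers also lie above 0 in Hps1-/- mice, although Nkg7, Tbx21 and Gzmb move below 0 there after the loess correction. Eomes, Ifng and Ncr1 lie below 0 on both axes, among most of the other Klr genes.

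The receptors of the *Klr* family, which include the Ly49 (*Klra*) and NKG2 (*Klrc*, *Klrk1*) receptors for MHC class I and its relatives, stand beside *Klrb1c* and *Klrd1* in the NK gene complex. All 16 of those listed besides the 2 members were tested. In PBS-HPS1 against PBS-WT, 7 of the 16 were at least 2-fold higher and 0 lower, against 3.58% and 2.38% of tested genes, and their median log2 ratio was 0.70, 0.80 after the loess correction. *Klra8*, which encodes Ly49H, was at 3.54 CPM in PBS-WT and 12.2 in PBS-HPS1, and 1.09 in BLEO-WT and 2.46 in BLEO-HPS1. *Klrc2* was at 4.43, 11.9, 2.27 and 2.77 CPM, and *Klre1* at 6.05, 13.7, 1.92 and 3.85 CPM in the same order. Like *Eomes* and *Ncr1*, these genes were highest in PBS-HPS1, as were 14 of the 16, against 28.2% of tested genes. The log2 ratio of BLEO-HPS1 to PBS-HPS1 was below 0 for 15 of the 16, and for 13 after the loess correction. With bleomycin, 12 of the 16 were at least 2-fold lower in WT and 11 in *Hps1*-/- mice, against 9.84% and 24.6% of tested genes, with median log2 ratios of -1.36 and -1.32. These ratios depended on GC content and length, since after the loess correction the medians were -0.80 and -0.34 and the counts 5 and 3. All tested genes then had medians of 0.021 and 0.035, and their shares past 2-fold were not computed. *Klrk1*, which encodes NKG2D, was at 38.2, 46.9, 15.6 and 18.8 CPM. *Klrb1b*, an inhibitory relative of *Klrb1c*, did not follow and was at 23.4, 26.4, 33.4 and 30.2 CPM. Reads of the near-identical *Klra* genes may be split between them by the counting, so single values are uncertain.

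Over all 33 other NK and ILC1 receptors and surface proteins, of which the *Klr* genes are a part, 9 were at least 2-fold higher and 0 lower in BLEO-HPS1 than in BLEO-WT, against 7.08% and 9.48% of tested genes, and the median log2 ratio was 0.41. *Cd160*, a receptor of NK cells, ILC1s and T cells, and *Cxcr3*, the receptor for chemokines induced by IFN-γ, had large ratios. *Cd160* was at 6.86, 6.47, 2.72 and 10.9 CPM and *Cxcr3* at 35.6, 26.0, 17.3 and 67.8 CPM, so BLEO-WT was lowest and BLEO-HPS1 highest for both. With bleomycin, 19 of the 33 were at least 2-fold lower in WT mice, against 9.84% of tested genes, with a median of -1.24. The loess correction left 9 lower and a median of -0.75. In *Hps1*-/- mice 8 were at least 2-fold higher and 14 lower with bleomycin, against 19.3% and 24.6%, with a median of -0.89. After the correction these were 4 and 3, with a median of -0.02. The shares of tested genes after the correction were not computed.

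Of the granzymes other than *Gzma* and *Gzmb*, 4 of 8 were tested. *Gzmk*, a granzyme best known from T cells, was at 4.17 CPM in PBS-WT and 2.77 in PBS-HPS1, and 1.46 in BLEO-WT and 9.58 in BLEO-HPS1, a log2 ratio of 2.69 between the bleomycin libraries that is close to that of *Gzma*. *Gzmm* was at 2.62, 3.56, 2.24 and 5.45 CPM. Both were highest in BLEO-HPS1, but for *Gzmm* the loess correction moved the log2 ratio against PBS-HPS1 from 0.61 to -0.42 and that against BLEO-WT from 1.27 to 0.66. The other granzyme genes lie beside *Gzmb* on chromosome 14 and had few reads, which the counting may split between near copies. *Gzmc* was at 1.41, 1.55, 1.21 and 1.86 CPM. Its log2 ratio of BLEO-WT to PBS-WT was -0.21 (-0.62 to 0.19), level within counting error. *Gzmn* had 0 to 3 reads per library. *Gzmd*, *Gzme*, *Gzmf* and *Gzmg* instead had 74, 30, 47 and 96 reads in BLEO-WT and 0 to 6 in each of the other 3 libraries. Among the death ligands, *Fasl* was at 11.9, 15.3, 5.85 and 7.0 CPM and *Tnfsf10*, which encodes TRAIL, at 32.3, 23.7, 11.5 and 10.4 CPM, both lower in the bleomycin libraries of both genotypes. For *Tnfsf10* in *Hps1*-/- mice this depended on the loess correction, which moved the log2 ratio of bleomycin to PBS from -1.19 to 0.10.

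The genes of granule biogenesis and release were near the tested genes as a whole. Of 16 tested, 0 were at least 2-fold higher and 1 lower in BLEO-HPS1 than in BLEO-WT, against 7.08% and 9.48% of tested genes, the shares for each count of this comparison that follows. Their median was -0.10, and after the loess correction it was 0.06 and 0 were lower. Of 14 other transcription factors of NK cells and ILC1s, 1 was higher and 2 lower, with a median of -0.15. The 2 that were lower, *Zeb2* and *Ikzf2*, were at -1.48 and -1.08, and at -0.56 and -0.15 after the loess correction. The one that was higher, *Zfp683*, which encodes Hobit, was at 4.17, 5.10, 2.88 and 9.96 CPM, a log2 ratio of 1.78, and 1.16 after the correction. Of 8 receptors for IL-12, IL-15, IL-18 and related cytokines, 2 were at least 2-fold higher and 0 lower, with a median of 0.14, and neither of the 2 was 2-fold higher after the loess correction. One of them, *Il2rb*, the shared chain of the IL-2 and IL-15 receptors, was at 185, 270, 160 and 322 CPM, a log2 ratio between the bleomycin libraries of 1.01, and 0.88 after the correction. Among 4 NK chemokines, *Ccl5* was at 82.7, 84.4, 43.2 and 160 CPM and *Xcl1* at 4.90, 6.07, 1.75 and 6.48 CPM, both lowest in BLEO-WT. The other 2, *Ccl3* and *Ccl4*, were lowest in BLEO-HPS1 instead, at 38.0 and 22.1 CPM. For 26 tested genes of the IFN-γ receptor, its signalling and its targets, the median log2 ratio was -0.23 in PBS-HPS1 against PBS-WT, -0.42 with bleomycin in WT, -0.14 with bleomycin in *Hps1*-/- mice and -0.04 between the bleomycin libraries, where 3 were at least 2-fold higher and 2 lower. After the loess correction, the median was 0.16 with bleomycin in *Hps1*-/- mice and 0.29 between the bleomycin libraries, where 0 genes were then 2-fold higher or lower, so these 2 medians changed direction.

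Markers of other cells also moved between the libraries. The summed CPM of 17 T cell markers was 1353 in PBS-WT and 1177 in PBS-HPS1, and 1144 in BLEO-WT and 2085 in BLEO-HPS1, and none of the 17 was at 0 in any library. In BLEO-HPS1 against BLEO-WT, 5 of the 17 were at least 2-fold higher and 0 lower, against 7.08% and 9.48% of tested genes, with a median log2 ratio of 0.85. With the loess correction 2 were higher and the median was 0.63. *Cd3d* was at 88.3, 72.3, 77.5 and 187 CPM in the 4 libraries and *Trbc2*, a T cell receptor chain, at 142, 122, 123 and 261 CPM. Like *Gzma* and *Nkg7*, they had their highest CPM in BLEO-HPS1. For *Nkg7*, the log2 ratio of BLEO-HPS1 to PBS-HPS1 was -0.08 after the loess correction. Between the bleomycin libraries their log2 ratios were 1.27 for *Cd3d* and 1.09 for *Trbc2*, and 1.05 and 0.55 after the correction. In BLEO-WT against PBS-WT, the median of the T cell markers was -0.22 and that of the 10 genes was -1.32. The summed CPM of 8 neutrophil markers was 1471, 456, 775 and 359, and 7 of the 8 were at least 2-fold lower in PBS-HPS1 than in PBS-WT, against 2.38% of tested genes, with a median log2 ratio of -1.75. The summed CPM of 5 plasmacytoid dendritic cell markers was 156, 137, 153 and 214. That of 9 B cell and plasma cell markers was 199, 191, 127 and 372, that of 10 macrophage and monocyte markers 12010, 8860, 17230 and 16850, and that of 7 fibroblast markers 173, 344, 517 and 2604. For 9 basophil and mast cell markers it was 190, 183, 91.4 and 63.0, and for 7 ILC3 markers 101, 70.2, 51.2 and 33.5. The 14 ILC2 genes summed to between 1073 and 1192 CPM in all 4 libraries, but single genes moved apart. *Arg1*, which macrophages express too, was at 8.32, 5.09, 364 and 247 CPM, and *Il7r*, the IL-7 receptor, at 179, 228, 140 and 73.9 CPM. In BLEO-HPS1 against PBS-HPS1, 3 of the 13 tested ILC2 genes were at least 2-fold higher and 5 lower, against 19.3% and 24.6% of tested genes. The count of higher genes is near the share of tested genes. After the loess correction 3 were higher and 1 lower, for which no shares of tested genes were computed. The median log2 ratio of the ILC2 genes was -0.88, and -0.28 after the correction. The part of these cells in the values of the 10 genes was not tested.

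**Figure D5:**
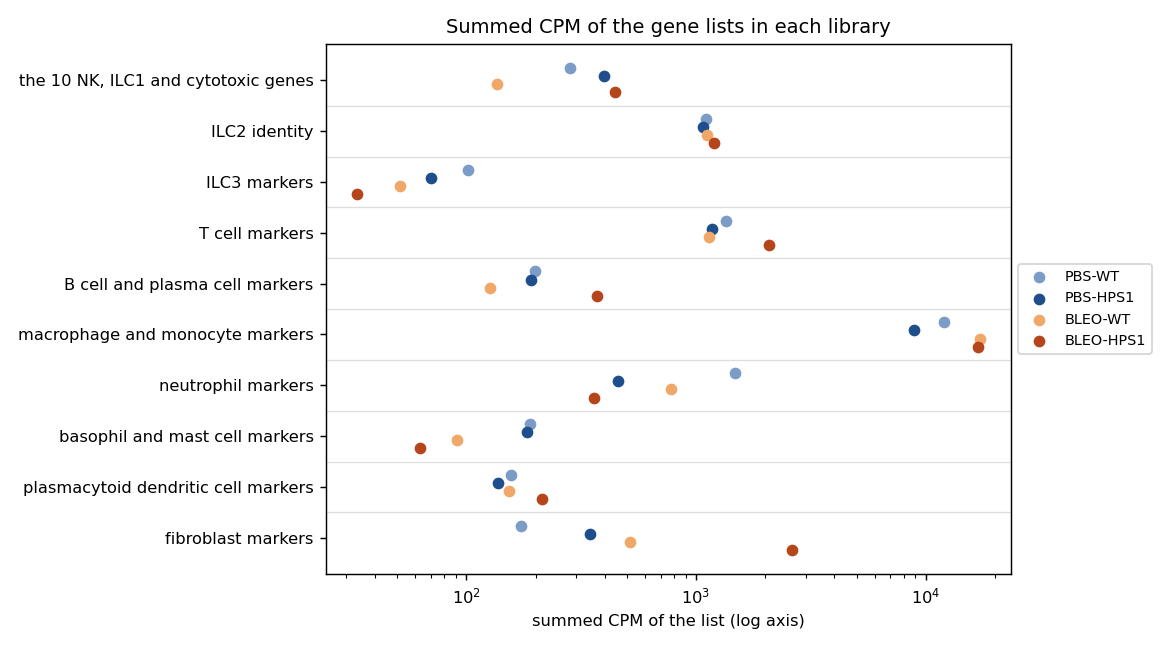
Summed TMM-scaled CPM of the 10 genes and of 9 lists of marker genes in each library, on a log axis, 1 point per library. The 10 genes range from 135 in BLEO-WT to 443 in BLEO-HPS1, the T cell markers from 1144 to 2085 in the same libraries, and the ILC2 genes from 1073 to 1192.

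The 10 genes were not all alike in pattern. The distance between the log2 CPM of a pair of genes, centred over the 4 libraries, was smallest for *Gzmb* and *Tbx21*, a root mean square of 0.17, and for *Eomes* and *Ifng*, 0.19, and largest for *Eomes* and *Nkg7*, 1.0. Against the mean pattern of the 10 genes, *Gzmb* (0.16) and *Klrb1c* (0.18) were the closest of the 10 and *Eomes* (0.54) the farthest. Among all tested genes, those nearest to the mean pattern were *Scube3* (0.11), *Vgll3* (0.12) and *Dapk2* (0.14), followed by *Gzmb*, *Sag*, *Lrrc23*, *Pomgnt2*, *Klrb1c*, *Xcl1* and *Col8a2*. For single genes, the nearest were *Ccl5* (0.07) and *Zfp683* (0.08) after *Vpreb3* (0.04) for *Nkg7*, *Scube3* (0.09), *Pdlim3* (0.09) and *Xcl1* (0.12) for *Gzmb*, and *Runx1t1* (0.07) for *Eomes*. These likenesses rest on 4 libraries, and many genes share any pattern over so few points.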

How the data were processed

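Read counts of 4 RNA-Seq libraries, 1 per group, were analysed. The authors deposited whole-number counts of reads per gene without normalization, from libraries made with a SMARTER mRNA kit. The aligner, counting tool and genome build are not given in the sources used here. Counts were scaled with TMM factors (edgeR 4.0.16, R 4.3.3) over the 15006 genes with at least 1 CPM in at least 1 library, and log2 ratios used a prior count of 2. Intervals are exact Clopper-Pearson intervals of the ratio of 2 counts, at 95%. With 1 library per group, no test was run and no p-value is given. Transcript length, GC content and positions came from GENCODE M21, in which 49056 gene IDs were found. Named are the 10 genes, their families, the genes of hand-written lists with the highest CPM or the largest ratio of BLEO-HPS1 to BLEO-WT, and genes of nearest pattern. The 10 genes and the lists were chosen with earlier results of these data known. Alternatives were prior counts of 0.5 and 10, size factors from DESeq2 1.42.0, total counts, TMM factors computed with immunoglobulin genes left out, other filters, 4-fold and a loess correction (span 0.3). On simulated data for BLEO-HPS1 against BLEO-WT with 14094 genes, 200 of 200 genes changed 4-fold were recovered and 0 unchanged genes were called. The simulated counts held counting error only, with no spread between mice or libraries. This outcome therefore checks the calculation and gives no error rate for the 2-fold calls on the real libraries.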

Additional observations from a re-analysis of the deposited data

Results flagged for a closer look

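By sign alone, 4 of the 10 genes were lower with bleomycin in WT and higher in *Hps1*-/- mice, against 11.1% of tested genes. Among them, *Gzmb* was level within counting error in *Hps1*-/- mice (-0.04 to 0.11). On the log2 scale, the bleomycin to PBS ratio was -1.24 in WT and 0.45 in *Hps1*-/- mice for *Tbx21*, a difference of 1.70. It was -1.39 and 0.48 for *Gzma*, a difference of 1.88, -1.43 and 0.03 for *Gzmb*, a difference of 1.46, and -0.74 and 0.93 for *Nkg7*, a difference of 1.67. With 1 library per group, these differences were not tested. The ratio in *Hps1*-/- mice was below 0 after the loess correction for *Tbx21*, *Gzmb* and *Nkg7* and above it for *Gzma*, at 0.50, while *Klrb1c*, not among these genes, was then at -0.57 in WT and 0.16 in *Hps1*-/- mice. The summed CPM of T cell markers was 1177 in PBS-HPS1 and 2085 in BLEO-HPS1, and 1353 in PBS-WT and 1144 in BLEO-WT, and its part in these differences was not tested.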

How the results depend on the processing

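Of 320 log2 ratios of the 10 genes under the alternatives, 310 kept their sign and 10 changed it. Size factors from DESeq2, TMM factors without immunoglobulin genes and the other prior counts gave nearly the main values. Their unchanged signs therefore add little to this count. No paired analysis was possible because each group has 1 library, and for the same reason no library could be left out. Without a filter on low counts, the median of the 10 genes was 0.37 in PBS-HPS1 against PBS-WT, where 0 genes were then 2-fold higher, and -0.003 in BLEO-HPS1 against PBS-HPS1, where 1 was. Signs that changed without the filter were those of *Gzmb* (-0.036) and *Nkg7* (-0.011) in PBS-HPS1 against PBS-WT and of *Klrd1* (0.021) in BLEO-HPS1 against PBS-HPS1. With total counts alone, the median was -1.50 in BLEO-WT against PBS-WT, -0.65 in BLEO-HPS1 against PBS-HPS1 and 1.36 in BLEO-HPS1 against BLEO-WT, with all tested genes at -0.18, -0.43 and -0.18, and *Gzmb* was at -0.40 in BLEO-HPS1 against PBS-HPS1. After the loess correction, the median in BLEO-HPS1 against BLEO-WT was 1.20. Signs that changed with it were those of *Klrd1* in BLEO-WT against PBS-WT (0.32) and, in BLEO-HPS1 against PBS-HPS1, of *Tbx21* (-0.34), *Klrb1c* (0.16), *Klrd1* (0.99), *Gzmb* (-0.002) and *Nkg7* (-0.076). At 4-fold, 0 genes were higher in PBS-HPS1 against PBS-WT, 0 were lower in BLEO-WT against PBS-WT, 0 were lower in BLEO-HPS1 against PBS-HPS1 and 1, *Gzma*, was higher in BLEO-HPS1 against BLEO-WT. The shares of tested genes past 4-fold were not computed, so these counts show only how the 2-fold counts depend on the threshold. Beyond what these settings show by construction, the cause was not tested. At this depth the counting error of reads, which takes no account of PCR copies, is small for the 10 genes. The spread between mice, which was not measured, limits every comparison.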
